A study of Mus musculus with 7 samples.

Results

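Small leucine-rich proteoglycans are secreted matrix proteins, and 10 genes of this family were followed by name in the table of 32544 genes: Dcn, Bgn, Lum, Fmod, Prelp, Ogn, Omd, Kera, Aspn and Podn. All 10 names were found, and reads of 9 of them were present. RNA came from whole abdominal aorta of male mice without the Apoe gene (Apoe-/-), a strain prone to atherosclerotic plaques. Every mouse had 12 weeks of high-fat diet and a weekly intravenous injection of nanoparticles at 50 mg/kg. The nanoparticles were ITA-LNP in 3 libraries and a control LNP (Ctrl-LNP) in 4, so genotype, diet and sex were shared by both groups. The labels spell out neither ITA nor LNP, and the series title names itaconate, a metabolite of activated macrophages. Neither the age of the mice nor the content of the control particle is stated in the labels. Nothing in the labels ties a library to its own mouse, so p-values describe the spread between these libraries, which may be partly technical.

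The core proteins of the family are curved chains of leucine-rich repeats that lie on collagen fibrils and set fibril diameter and spacing. Decorin and biglycan carry chondroitin or dermatan sulphate chains, and lumican, fibromodulin and keratocan carry keratan sulphate. In the artery wall they are made by smooth muscle cells and adventitial fibroblasts, and biglycan and decorin are known to bind lipoproteins and growth factors such as TGF-β. Expression is given in CPM, reads per 1000000 reads in the gene table. Reads were taken from the 3′ end of transcripts, so transcript length does not enter the level and levels of different genes can be set side by side.

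The libraries held 5077073 to 7281721 reads, and 3 reads, the upper limit for a gene at 0, were 0.412 to 0.591 CPM. Limits and intervals cover counting error only. Checked against markers, the libraries labelled ITA-LNP held the vessel wall that the tissue label names, while those labelled control-LNP held little of it and much blood. All 8 smooth muscle markers rose with ITA-LNP, and their summed level ran from 17078 to 20840.0 CPM there and from 155 to 461 CPM in the libraries labelled control-LNP. Adventitial fibroblast markers rose in 5 of 7 (493 to 584 against 15.6 to 109.6 CPM) and endothelial markers in 5 of 6 (932 to 1166 against 4.78 to 18.9 CPM). All 5 platelet markers fell (87.4 to 169 against 4720.2 to 6146 CPM), as did 3 of 4 neutrophil (44.1 to 60.4 against 874 to 25494 CPM), 3 of 4 B cell (3.98 to 25.1 against 369 to 1350.2 CPM), 3 of 4 T cell (0.627 to 16.2 against 130.4 to 386 CPM) and 4 of 5 erythroid markers (2550.1 to 4229 against 12380 to 44685 CPM). None of the markers in these lists was at 0 throughout a group. Some passed the filter for low values, given below, only through the group in which they were high, so their calls add nothing to these counts. They were 1 smooth muscle, 2 adventitial and 3 endothelial markers called higher, and 1 platelet, 2 B cell and 2 T cell markers called lower. Of all genes tested, 10.3% were called higher and 5.15% lower. The treatment and this difference in what the libraries hold cannot be told apart, so every fold change below compares libraries as labelled and may not be a change within the aorta wall. In such bulk RNA, fewer cells of a type and less RNA per cell cannot be told apart. Control-LNP replicate 2 stood apart, with 10846 genes detected against 14232 to 15333 in the other control-LNP libraries.

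The family as a whole was abundant in the ITA-LNP libraries and scarce in the libraries labelled control-LNP. The 10 genes summed to 6950.2, 7189 and 7954 CPM in ITA-LNP replicates 1 to 3, which was 0.695% to 0.795% of all reads. The control-LNP sums were 80.2, 67.3, 37.1 and 42.1 CPM in replicates 1 to 4. The groups were far apart, and the spread within each was small beside the distance: the means were 7364 ± 524 and 56.7 ± 20.5 CPM (SD, n = 3 and 4, as for every SD given), a ratio of 129.9, or 139 without control-LNP replicate 2.

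Of the 10 genes, 9 passed the filter for low values (log2(CPM + 1), averaged across the 7 libraries, had to reach 1) and all 9 were called higher with ITA-LNP (limma, adjusted p below 0.05 over 12636 genes). None was lower. Among all genes tested, 10.3% were called higher and 5.15% lower. The log2 fold changes ran from 3.01 to 7.57 with a median of 6.77, beside a median of 0.15 over all genes tested. Omd, Aspn and Podn passed the filter only through their ITA-LNP values, so their being called adds nothing to that count; the same holds for 575 of the 1306 genes called higher overall. Centring each library on its median shifted the median fold change of all genes by -1.13 and turned the split of called genes from 1306 higher and 651 lower to 741 and 1249. The split was 1614 and 1401 with quantile normalization, and 2100 and 2243 with sample weights. The members called higher then numbered 7, 8 and 9, with no change of direction in any of them. The libraries of the 2 groups did not overlap for any of the 9, which was also so, in the higher direction, for 19.1% of all genes tested (10.7% in the lower).

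**Figure D1:**
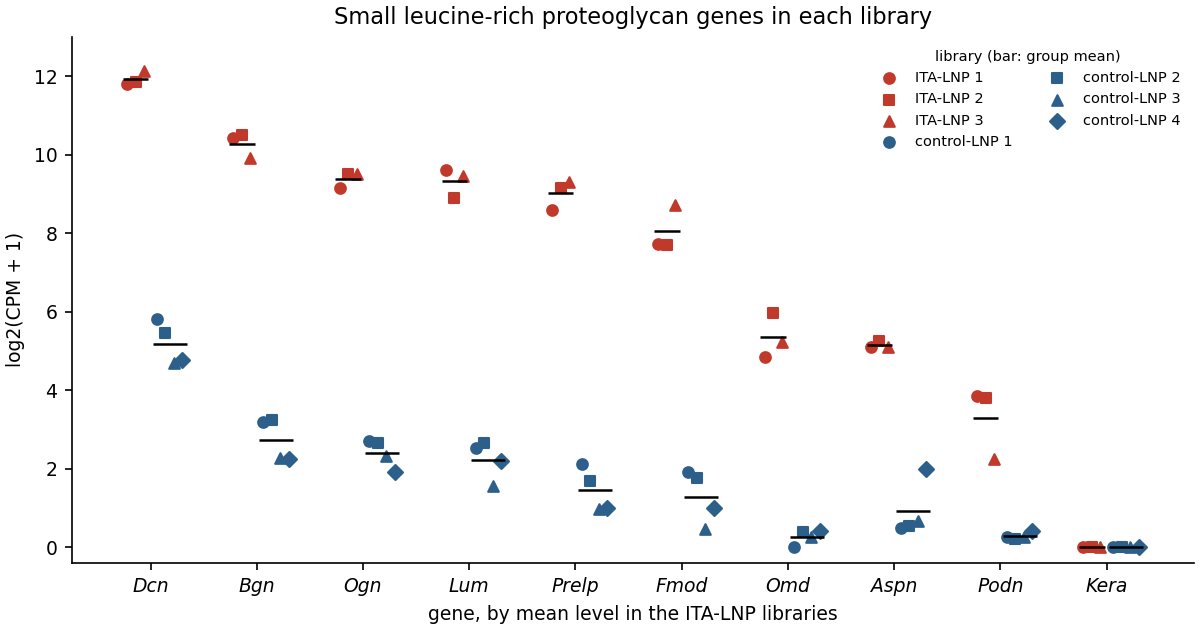
Level of the 10 genes in each library, as log2(CPM + 1) on the vertical axis, with genes ordered by their mean level with ITA-LNP. Points are libraries, in red for ITA-LNP and blue for control-LNP, and bars are group means. For 9 genes every red point lies above every blue one, as for 19.1% of all genes tested, and Kera is at 0 throughout.

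Decorin and biglycan, the members with chondroitin or dermatan sulphate chains, were the most abundant. Dcn (ENSMUSG00000019929.16, chromosome 10, 97479609 to 97518143, mm10) encodes decorin, which wraps collagen fibrils and sequesters TGF-β. It was at 3566, 3656 and 4440.3 CPM with ITA-LNP and 55.1, 42.9, 25.0 and 26.4 CPM in control-LNP replicates 1 to 4. The groups did not overlap, and the highest control-LNP value was 1.55% of the lowest ITA-LNP value. On the log2(CPM + 1) scale the difference was 6.73 ± 0.37 (SE, as after each fold change below; adjusted p = 9.33e-06, limma). Dcn ranked 19th to 26th of all genes in the ITA-LNP libraries and 3252nd to 5214th in the control-LNP libraries.

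Bgn (ENSMUSG00000031375.17, chromosome X, 73483602 to 73495933) encodes biglycan, a proteoglycan of the intima and media. Its level was 1368, 1445 and 965 CPM with ITA-LNP, lowest in replicate 3, the library in which Dcn was highest. Control-LNP values were 8.08, 8.37, 3.85 and 3.77 CPM, on 20 to 56 reads each. Again the groups did not overlap. The log2 fold change of 7.54 ± 0.53 (adjusted p = 3.79e-05, limma) was the 13th highest of all genes tested.

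Asporin, related to decorin but without a glycosaminoglycan chain, was much lower. Aspn (ENSMUSG00000021388.14, chromosome 13, 49544443 to 49567565) stood at 33.1, 37.0 and 33.0 CPM with ITA-LNP, and its SD, 6.66% of the mean, was the smallest relative spread among the members in that group. Control-LNP replicates 1 to 3 held 2, 3 and 3 reads (0.394, 0.449 and 0.577 CPM), and replicate 4 held 18 reads (2.95 CPM). Replicate 4 was thus well above the other control-LNP libraries, yet all ITA-LNP values lay higher. Its rise of 4.23 ± 0.85 on the log2 scale passed (adjusted p = 0.00765, limma). With median centring it was 3.10 and did not pass (adjusted p = 0.0586). Exons of Aspn share 7 bases with exons of Cenpp on the other strand. Cenpp had 97, 0 and 1 reads with ITA-LNP and 13, 0, 0 and 0 reads in control-LNP replicates 1 to 4. The part of this overlap in the Aspn values was not tested.

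Among the keratan sulphate members and their relatives, Lum and Prelp showed the same separation. Lum (ENSMUSG00000036446.5, chromosome 10, 97565128 to 97572703) encodes lumican, a regulator of fibril assembly, and was at 782, 478 and 697 CPM against 4.73, 5.23, 1.92 and 3.61 CPM. ITA-LNP replicate 2 was the lowest of its group, and no value of one group reached the other. Its log2 fold change was 7.09 ± 0.59 (adjusted p = 9.53e-05, limma).

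Prelp (ENSMUSG00000041577.5, chromosome 1, 133910304 to 133921414) encodes a protein with a basic, heparin-binding end that links basement membranes to collagen. ITA-LNP libraries held 387, 566 and 630.1 CPM and control-LNP libraries 3.35, 2.24, 0.962 and 0.984 CPM, the last pair on 5 and 6 reads. With a log2 fold change of 7.57 ± 0.67 (adjusted p = 0.000129, limma) its change was close to that of Bgn, and Bgn's was the larger in 5 of the 18 alternative fits. Its control-LNP mean was 0.357% of its ITA-LNP mean. An exon of Gm15851 on the other strand shares 350 bases with Prelp, and the counting is not stated to use strand.

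Fmod (ENSMUSG00000041559.7, chromosome 1, 134037254 to 134048277) encodes fibromodulin, a collagen-binding protein that limits fibril growth. At 212, 208 and 418 CPM it was higher in ITA-LNP replicate 3 than in the other 2, which were nearly equal. Control-LNP libraries held 2.76, 2.39, 0.385 and 0.984 CPM, on 2 to 16 reads. There was no overlap between groups, and the log2 fold change was 6.77 ± 0.77 (adjusted p = 0.000476, limma).

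Omd (ENSMUSG00000048368.9, chromosome 13, 49582462 to 49592822) encodes osteomodulin, named for its place in bone matrix. Values of 27.9, 60.9 and 36.4 CPM with ITA-LNP stood against 0, 2, 1 and 2 reads in the control-LNP libraries (up to 0.328 CPM). The libraries separated fully, and replicate 2 was highest with ITA-LNP. A log2 fold change of 5.08 ± 0.80 (adjusted p = 0.00237, limma) rests on 5 control-LNP reads in all. Of the bone markers, Bglap had no reads in either group and 1 of 3 tested rose; this was Ibsp, picked out here with its values known. Ibsp alone made up 97.6% of the summed bone markers with ITA-LNP (486 to 724 against 2.54 to 28.6 CPM for the sum).

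Kera (ENSMUSG00000019932.8, chromosome 10, 97606879 to 97613692), which encodes the keratocan of the corneal stroma, had 0 reads in every library. This allows up to 0.412 to 0.471 CPM in the ITA-LNP and 0.449 to 0.591 CPM in the control-LNP libraries.

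Osteoglycin and podocan complete the family. Ogn (ENSMUSG00000021390.6, chromosome 13, 49608046 to 49624501) encodes osteoglycin, also called mimecan, a small member of the vessel wall. It was at 562, 725 and 729.9 CPM against 5.51, 5.23, 4.04 and 2.79 CPM, with the groups apart. Its control-LNP values varied least among the 9 members with reads (SD 28.4% of the mean). It rose by 6.99 ± 0.55 on the log2 scale (adjusted p = 7.67e-05, limma).

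Podn (ENSMUSG00000028600.15, chromosome 4, 108014791 to 108096445) encodes podocan, which is known to restrain smooth muscle cell growth. It was the lowest member with reads, at 13.3, 12.8 and 3.71 CPM with ITA-LNP and 0.197, 0.150, 0.192 and 0.328 CPM in the control-LNP libraries, where each value is 1 or 2 reads. ITA-LNP replicate 3 was well below the other 2 but still above all control-LNP libraries. The log2 fold change of 3.01 ± 0.74 passed (adjusted p = 0.0217, limma). It did not pass without control-LNP replicate 1, 3 or 4 (3.00 to 3.05, adjusted p = 0.0895 to 0.105), with median centring (1.88, 0.251) or with quantile normalization (2.21, 0.0625).

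Ordered by mean level with ITA-LNP, the sequence was Dcn (3887 ± 481 CPM), Bgn (1259 ± 258), Ogn (672 ± 96.0), Lum (652 ± 157), Prelp (528 ± 126), Fmod (279 ± 120.5), Omd (41.7 ± 17.1), Aspn (34.3 ± 2.29) and Podn (9.95 ± 5.42). Neighbours whose ITA-LNP ranges overlapped were Ogn and Lum, Lum and Prelp, Prelp and Fmod, and Omd and Aspn, so their order is not set by these libraries. In the control-LNP libraries the mean levels fell in the same order from Dcn (37.4 ± 14.4 CPM) to Fmod (1.63 ± 1.13), and there each range from Bgn to Fmod overlapped that of the next gene down.

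The make-up of the family differed between the groups for decorin. Dcn gave 51.3%, 50.9% and 55.8% of the reads of the 10 genes in ITA-LNP replicates 1 to 3, and 68.8%, 63.8%, 67.4% and 62.6% in control-LNP replicates 1 to 4. The exact Clopper-Pearson 95% intervals ended at 56.2% in the highest ITA-LNP library and began at 56.4% in the lowest control-LNP library, which held 257 reads of the family. Prelp went the other way, with 5.57% to 7.92% of the family reads in the ITA-LNP libraries and 2.33% to 4.18% in the control-LNP libraries. These shares did not overlap, but their 95% intervals did. The interval was 2.45% to 6.60% in control-LNP replicate 1, on 17 reads, and 5.36% to 5.79% in ITA-LNP replicate 1. These shares do not depend on how libraries are scaled. They are given as a description with no test.

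Biglycan's share divided the ITA-LNP libraries themselves. It was 19.7% (95% interval 19.3% to 20.1%) and 20.1% (19.7% to 20.5%) in replicates 1 and 2 but 12.1% (11.9% to 12.4%) in replicate 3. The control-LNP shares, 8.95% to 12.4%, overlapped replicate 3 alone. There were thus 2.61, 2.53 and 4.60 Dcn reads for each Bgn read with ITA-LNP, and 5.13 to 7 in the control-LNP libraries. Shares of Lum, Ogn, Fmod, Omd and Aspn overlapped between groups. Podn shares in the control-LNP libraries rest on 1 or 2 reads each and are not read further.

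**Figure D2:**
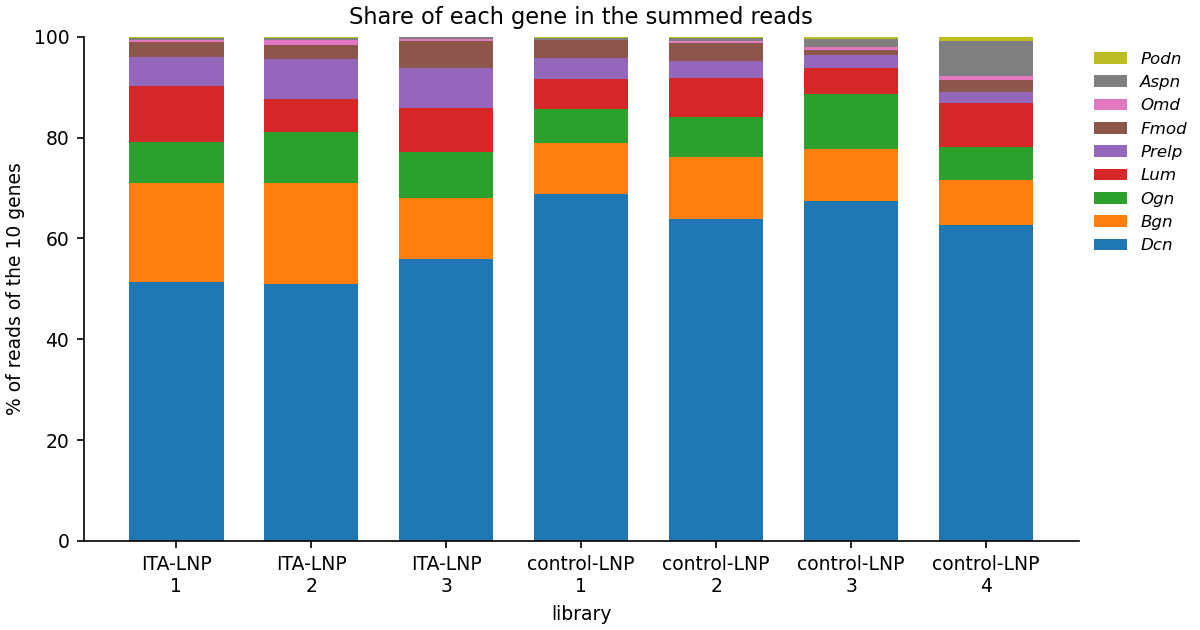
Share of each gene in the summed reads of the 10 genes, in % on the vertical axis, for each library. Stacked bars start at 0, and Kera is left out because it had no reads. The blue decorin segment is 50.9% to 55.8% with ITA-LNP and 62.6% to 68.8% with control-LNP, and the grey Aspn segment reaches 7.004% in control-LNP replicate 4.

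As a percentage of its own ITA-LNP mean, the mean control-LNP level was 0.961% for Dcn, 0.478% for Bgn, 0.594% for Lum, 0.584% for Fmod, 0.357% for Prelp, 0.654% for Ogn and 0.491% for Omd. Only Aspn (3.18%) and Podn (2.18%) stood above 1%. In Aspn, control-LNP replicate 4 alone was at 8.59%, with the other 3 libraries at 1.15% to 1.68%. Replicate 1 or 2 was the highest control-LNP library for Dcn, Bgn, Lum, Fmod, Prelp and Ogn, and replicate 4 for Aspn. Omd and Podn had at most 2 reads in a control-LNP library, too few to rank them.

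**Figure D3:**
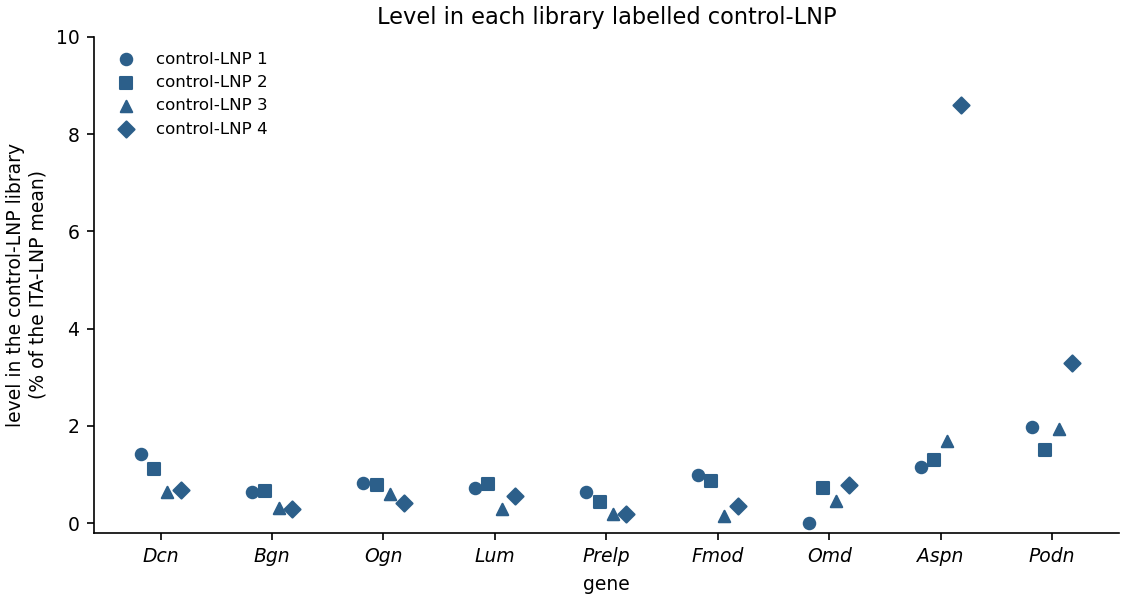
Level of 9 genes in each control-LNP library, as % of the gene's mean in the ITA-LNP libraries (vertical axis, linear). Each point is 1 library. Most points lie below 2%, and Aspn in replicate 4 stands at 8.59%.

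Many of these genes sit in 3 chromosomal clusters, and neighbours differed widely in level. On chromosome 10 the order on the plus strand is Dcn, Lum, Kera and Epyc, spread over 202846 bases of mm10. Dcn and Lum were among the abundant genes, whereas their neighbours Kera and Epyc had 0 reads in all ITA-LNP libraries. Epyc, which encodes the cartilage proteoglycan epiphycan, had 3 reads in the control-LNP libraries together. On chromosome 13 Ecm2, Aspn, Omd and Ogn lie within 119692 bases on the plus strand, and the end genes were higher (Ecm2 176 ± 25.6 and Ogn 672 ± 96.0 CPM with ITA-LNP) than the inner pair (Aspn 34.3 ± 2.29 and Omd 41.7 ± 17.1 CPM). On chromosome 1 Optc, Prelp and Fmod lie within 151079 bases. Optc, 2304 bases from Prelp and on the same strand, was at 10.8 ± 6.96 CPM beside 528 ± 126 CPM for Prelp.

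**Figure D4:**
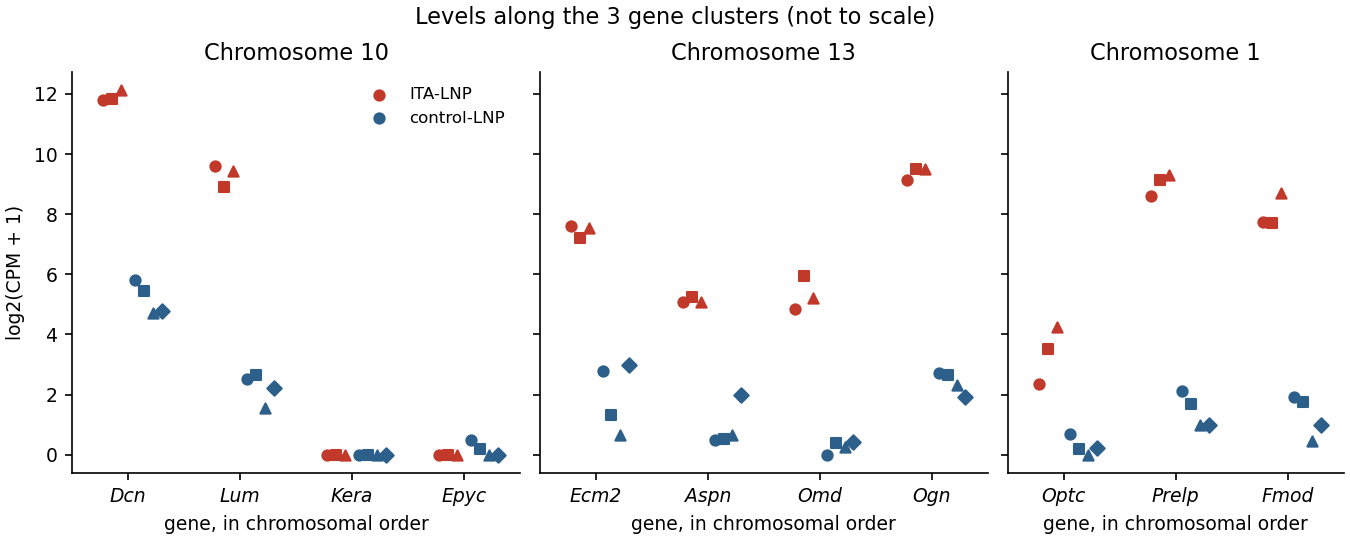
Levels along the 3 gene clusters as log2(CPM + 1) on the vertical axis, with genes in chromosomal order and equal spacing, not to scale. Red points are ITA-LNP and blue points control-LNP libraries, with marker shapes for replicates as in the plot of the 10 genes. Abundant and unread genes are neighbours on chromosome 10, where Dcn is at 3887 CPM and Kera at 0 with ITA-LNP.

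Start-site sequences of the members are shown as a description. RefSeq sequences on GRCm38.p6, 300 bases around a start site, were matched for 8 of the 10 genes, with 9 start sites in all. For Podn and Kera these sequences do not hold the start of the gene as given by the coordinates above. Dcn and Lum were the genes without a match. Kera, which had no reads, is among the 8, and Podn entered with each of its start sites. The 3 most abundant matched genes are printed below 5′ to 3′ on the gene's strand: Bgn at chrX:73483351-73483650 (plus strand), Ogn at chr13:49607765-49608064 (plus) and Prelp at chr1:133921352-133921651 (minus). Capitals mark matches to the SP1 box GGGCGG in Bgn, the TATA box TATAAA in Ogn and the SMAD element CAGAC in Prelp, each on either strand, so that some appear as their reverse complement. Neighbouring matches overlap in Bgn and in Ogn.
Bgn: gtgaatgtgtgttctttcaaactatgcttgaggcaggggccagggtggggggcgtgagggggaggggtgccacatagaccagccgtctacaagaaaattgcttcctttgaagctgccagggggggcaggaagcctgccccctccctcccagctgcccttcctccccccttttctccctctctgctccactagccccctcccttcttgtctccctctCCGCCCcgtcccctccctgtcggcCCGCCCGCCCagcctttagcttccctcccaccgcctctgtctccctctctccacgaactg
Ogn: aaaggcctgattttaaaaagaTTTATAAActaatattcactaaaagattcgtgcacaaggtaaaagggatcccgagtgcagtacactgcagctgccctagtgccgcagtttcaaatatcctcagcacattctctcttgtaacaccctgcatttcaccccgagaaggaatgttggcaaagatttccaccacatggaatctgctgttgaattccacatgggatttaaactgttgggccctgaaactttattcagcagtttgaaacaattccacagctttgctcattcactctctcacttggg
Prelp: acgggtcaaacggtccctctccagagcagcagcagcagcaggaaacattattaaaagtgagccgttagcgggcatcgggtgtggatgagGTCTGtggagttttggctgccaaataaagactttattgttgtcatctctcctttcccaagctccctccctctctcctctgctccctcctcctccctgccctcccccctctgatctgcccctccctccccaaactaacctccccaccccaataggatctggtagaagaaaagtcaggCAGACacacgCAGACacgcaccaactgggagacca

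These 3 starts share no motif among those searched. Bgn holds 3 SP1 boxes and Ogn 2 TATA matches on opposite strands, while Prelp holds 3 SMAD elements. Their G and C content was 63.7% in Bgn, 42.3% in Ogn and 55.3% in Prelp, beside a median of 52.7% over 32851 start regions of the same length. Of the 9 member starts, 3 held the SMAD element (49.6% of all starts), 2 the SP1 box (35.7%), 2 the TATA box (13.6%), and 0 the AP-1 element TGACTCA (5.20%) or the CArG box (1.63%). These are letter matches in a short window and say nothing of factors bound there.

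Other genes of the family were followed from a list of 8. Beside the counts in this list and those below, 10.3% of all genes tested were called higher and 5.15% lower. Of the 5 tested, 3 were higher with ITA-LNP: Ecm2, Chad and Optc. Chad and Optc passed the filter only through their ITA-LNP values. Ecm2, a matrix protein with similar repeats, was at 195, 147 and 186 CPM against 5.91, 1.495, 0.577 and 6.89 CPM (5.52 ± 0.83, adjusted p = 0.00187, limma). Control-LNP replicate 4 was the highest of its group, with replicate 1 close to it (42 and 30 reads). In its neighbour Aspn replicate 4 was also highest, but replicate 1 was far below it (18 and 2 reads). Chad encodes chondroadherin, a cartilage protein that binds cells. It spread widely at 80.8, 12.7 and 30.9 CPM against at most 0.394 CPM (4.83 ± 0.89, adjusted p = 0.00502, limma; 0.0595 with median centring). Optc, which encodes opticin, rose by 3.10 ± 0.76 on the log2 scale (adjusted p = 0.0214, limma). This call was lost when control-LNP replicate 1, 3 or 4 was left out (adjusted p = 0.0693 to 0.111), with median centring (0.235) and with quantile normalization (0.0894).

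Podnl1, a relative of podocan, leaned the opposite way: it had 1, 1 and 0 reads with ITA-LNP and 42, 1, 89 and 44 reads in control-LNP replicates 1 to 4. Replicate 2 alone overlapped the ITA-LNP libraries. The value of -2.52 ± 1.00 on the log2 scale missed the threshold (adjusted p = 0.127, limma). It passed without replicate 2 (-3.34, 0.00491), with median centring (-3.65, 0.0113), with quantile normalization (-2.36, 0.0349) and with sample weights (-3.15, 0.00540). Nyx, the nyctalopin of the retina, was at 0.295 to 6.32 against 0 to 5.91 CPM and did not pass (0.25 ± 0.97, adjusted p = 0.908, limma). Tsku, Epyc and Nepn were below the filter, and Nepn had 208 reads in ITA-LNP replicate 3 and none in the other ITA-LNP libraries.

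Transcripts of the fibre partners of these proteoglycans moved in the same direction as theirs. Of 13 collagens and other fibre partners, 12 were tested and all 12 were higher, 3 of them tested only through their ITA-LNP values, with a median log2 fold change of 6.71. The leading members by p were Col3a1 and Col1a2, chains of the fibrillar collagens, Col1a1 and the cell-adhesive glycoprotein Fn1, at 6193 against 45.2, 5785 against 36.2, 4319 against 44.4 and 4055 against 43.3 CPM. For every 100 reads of Col1a1, Col1a2 and Col3a1 together there were 39.6, 48.7 and 48.0 reads of the 10 proteoglycan genes with ITA-LNP, and 45.2, 48.9, 49.4 and 37.2 in control-LNP replicates 1 to 4. The groups overlapped almost entirely in this ratio, with means of 45.4 ± 5.06 and 45.2 ± 5.62.

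The next list held proteases that mature or cut the core proteins, with the procollagen processing enhancers Pcolce and Pcolce2, which are not proteases. Of 10 tested, 8 rose and 1 fell, but 4 of the 8, Mmp2 among them, and the 1 that fell passed the filter only through the group in which they were high. Pcolce2 was at 317 against 2.83 CPM (6.47 ± 0.67), and the gelatinase Mmp2 at 158 against 0.479 CPM (6.73 ± 0.77). Adamts5, an aggrecanase, was at 110.7 against 1.40 CPM (5.53 ± 0.76). The 1 lower member was Gzmb, the granzyme of cytotoxic lymphocytes, which can cleave decorin, at 0.638 against 83.9 CPM (-5.68 ± 0.72). Adjusted p was below 0.05 for these 4 genes in every alternative run. Summed T cell markers moved in the same direction as Gzmb, and their part in its fall was not tested.

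Enzymes that build and sulphate the glycosaminoglycan chains were listed together with Tpst1 and Tpst2, which sulphate tyrosines of proteins. Of 23 tested, 1 was higher and 0 lower, beside 10.3% and 5.15% of all genes tested, and the median log2 fold change was 1.07 beside 0.15 over all genes. The 1 was Chst14, the dermatan 4-O-sulphotransferase, at 27.0 against 1.36 CPM (3.67 ± 0.86, adjusted p = 0.0167, limma). The call was lost when ITA-LNP replicate 1 or control-LNP replicate 3 was left out (adjusted p = 0.0511 and 0.0669) and with median centring (0.0674). The list summed to 635 to 719 CPM with ITA-LNP and 344 to 521 CPM with control-LNP. Across the 19 enzymes at 10 CPM or more with ITA-LNP the median control-LNP level was 42.2% of the ITA-LNP level, while across the 8 proteoglycan genes at that level it was 0.589%. Genes were kept here by their ITA-LNP level alone, which favours low percentages in both lists. The difference between the lists was not tested, and 22 enzymes that did not pass are not shown to be equal between groups. Among them the groups did not overlap for B3galt6, Chpf, Chpf2, Chst1, Dse and Tpst1, each higher with ITA-LNP. Control-LNP replicate 2 was far below its group in some, as in Dse, at 0.748 CPM beside 18.1 to 29.2 CPM. In Chst1, Chst3, Chst12, Chst15 and Csgalnact2 it was the highest of its group. Without replicate 2, 4053 genes were called in all, and which of the 22 enzymes were among them is not given.

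Growth factors and receptors that the proteoglycans bind formed another list, again to be set beside 10.3% of all genes tested called higher and 5.15% lower. Of 16 tested, 11 did not pass and 5 were higher, Tgfb3 being tested only through its ITA-LNP values: the ligands Tgfb2 (196 against 1.38 CPM, 6.43 ± 0.78) and Tgfb3 (54.7 against 0.213 CPM, 5.46 ± 0.83), and the receptors Kdr (148 against 5.43 CPM, 4.80 ± 0.82), Lrp1 (261 against 27.6 CPM, 3.76 ± 0.86) and Igf1r. Igf1r is named after its values were seen, at 215 against 61.1 CPM (1.92 ± 0.50, adjusted p = 0.0275, limma). Lrp1, an endocytic receptor of decorin, no longer passed when any one ITA-LNP library was left out (adjusted p = 0.0586 to 0.0666). Kdr is also in the endothelial marker list, whose summed level moved the same way. The list's median log2 fold change was 1.36.

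Of 19 other proteoglycans tested, 13 were higher and 1 lower, and 5 of the 13, Cspg4 among them, passed the filter only through their ITA-LNP values. Cspg4, the NG2 proteoglycan of mural cells, was at 268 against 0.466 CPM (7.56 ± 0.75), Sdc2, a syndecan, at 224 against 2.34 CPM (6.10 ± 0.69), and Prg4, the lubricant of joint surfaces, at 701 against 87.1 CPM (2.98 ± 0.37). The lower gene was Srgn, serglycin, the proteoglycan of leukocyte and platelet granules, at 283 against 2289 CPM (-2.91 ± 0.35). With median centring Prg4 (1.85, adjusted p = 0.208) and Srgn (-4.04, 0.0712) did not pass. Platelet and neutrophil markers were also lower with ITA-LNP, as given above, and their part in the Srgn value was not tested. Summed over the list, the levels of the groups overlapped, at 2398 to 2676 and 1768 to 4307 CPM. Srgn, at a mean of 2289 CPM, made up most of the mean control-LNP sum of 2496 CPM. The overlap of the sums therefore says little of the other genes in the list.

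**Figure D5:**
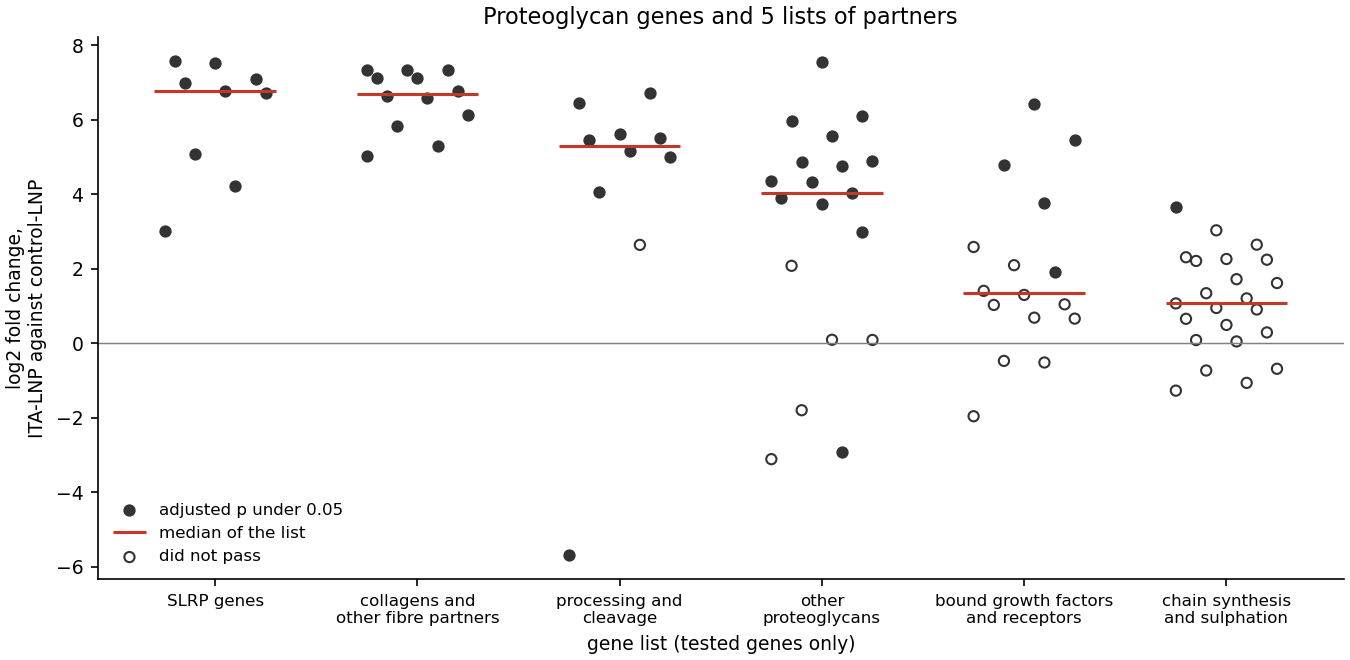
Log2 fold change, ITA-LNP against control-LNP, of each tested gene in 6 lists. Filled points passed at an adjusted p below 0.05, open points did not, and red lines are list medians. The proteoglycan genes (median 6.77) and fibre partners (6.71) lie high, and the list of chain synthesis and sulphation (median 1.07) has 1 filled point among 23.

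Markers of other connective tissues are given because fibromodulin, Prelp, osteomodulin and chondroadherin are also made in cartilage, tendon and bone. Cartilage markers rose in 5 of 7 tested and summed to 769 to 994 against 12.6 to 45.1 CPM. Col2a1 gave 65.3% of that sum with ITA-LNP, 4 of the 5 passed the filter only through their ITA-LNP values, and Matn1 was at 0 in all ITA-LNP libraries. Both tested tendon markers missed the threshold (24.8 to 50.9 against 0 to 4.59 CPM summed), and Tnmd had no reads in any library. The cartilage and tendon sums were highest in ITA-LNP replicate 3, as were Fmod and Prelp. Omd was highest in replicate 2, and both Chad and the bone sum were highest in replicate 1. Of 3 white adipocyte markers tested, 1 rose, Plin4, and it made up 86.8% of the summed level with ITA-LNP (148 to 170.5 against 0.385 to 2.76 CPM for the sum). Lep was at 0 in both groups. The part of these markers in the proteoglycan levels was not tested.

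Outside these lists, 5 genes had the profile most like the mean of the 9 tested members. Likeness was measured as the root mean square difference of log2(CPM + 1) over the 7 libraries, each gene centred on its own mean, among 11995 genes. They were Abcc9, a subunit of ATP-sensitive potassium channels (0.105), Dsp, which encodes desmoplakin (0.138), the Wnt receptor Fzd1 (0.174), Cped1 (0.177) and the RhoA exchange factor Arhgef25 (0.178). Members themselves differed from that mean by 0.378 for Dcn to 1.62 for Podn. These 5 were picked for likeness, so their levels, such as 144 against 0.956 CPM for Abcc9, are a description with no test.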

How the data were processed

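Whole abdominal aorta RNA was measured in 3 ITA-LNP and 4 control-LNP libraries, grouped and numbered by their titles. Per the labels' protocols, 500 ng of total RNA went into QuantSeq 3′ mRNA libraries. The submitters' processing notes name mm10. The aligner, counter, annotation and strand setting are stated in neither the labels nor the table. The deposited values were taken to be log10(CPM + 1), since undoing the log gave columns that sum to 1000000. Whole reads came back for 100% of values (tolerance 0.01), which gave each depth. Per the design, the values were tested as log2(CPM + 1) (pseudocount 1 CPM, which understates changes of low genes) with limma-trend (limma 3.58.1, R 4.3.3) on 12636 genes, with no covariate and Benjamini-Hochberg adjustment over them. The procedure was tested on simulated data with equal numbers of rises and falls. Those data lack the difference in blood and wall content seen here, so that test does not bear on the calls in these libraries. Because CPM are not counts, voom on the recovered reads was an alternative, and it called 1764 genes where limma-trend called 1957.

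The members and lists were chosen with earlier results of these data known. The genes named were all 10 members, up to 4 called genes by p in each pathway list, any gene of the other family list with reads, and the 5 nearest profiles. Coordinates are from GENCODE M21. Alternatives were filters, pseudocounts, scalings, priors, sample weights, a replicate block, voom, a threshold of 0.1, and leaving out each library. Python 3.11.15 with pandas 2.3.3, numpy 2.4.6 and scipy 1.17.1 was used for tables and intervals, and matplotlib 3.10.9 for plots.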

Additional observations from a re-analysis of the deposited data

Results flagged for a closer look

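Among the 4 control-LNP libraries, 1 library lay far from the other 3 in 3 of 52 sets of values examined, and chance alone would single out about 1 in 20. Aspn was 2.95 CPM in control-LNP replicate 4, on 18 reads, where the other 3 libraries held 2 or 3 reads. Its share of the family's reads in that library was 7.004%, against 0.491% to 1.55% in the others. Srgn, the granule proteoglycan, was 4094 CPM in control-LNP replicate 2, the library that also had the highest sum of neutrophil markers.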

How the results depend on the processing

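The number of genes called, 1957 in the main analysis, was 3015 with quantile normalization, 4343 with sample weights and 1060 with the replicate number as a block, and 1387 to 4053 when 1 library was left out, the highest without control-LNP replicate 2. Of the proteoglycan genes, 7 to 9 were called higher and 0 lower in every alternative run. Dcn, Bgn, Lum, Fmod, Prelp, Ogn and Omd kept their calls in all 18 alternative fits, with log2 fold changes of 5.60 to 6.98 for Dcn and 3.38 to 7.28 for Omd. Aspn lost its call in 1 fit. Podn lost its call in 6 of the 17 fits that tested it, and fell below the filter when that required a mean of at least 2. Nyx, which did not pass, turned to -0.88 with median centring and -0.10 with sample weights, and ranged from -0.11 to 0.72 when 1 library was left out. That range lacks the runs without ITA-LNP replicate 3 and without control-LNP replicate 1, in which Nyx fell below the filter. The replicate numbers gave no sign of pairing the libraries. Deviations of same-numbered libraries correlated at -0.017 to 0.0053 across genes, and 0 of 3 ITA-LNP libraries correlated best with its own number. With so few libraries and such unlike groups, these correlations cannot exclude a pairing. Under that block Podn, Optc and Chst14 lost their calls (adjusted p = 0.131, 0.140 and 0.0748). Depth limits the control-LNP values of Omd and Podn, which rest on 5 reads each, and of Kera, at 0.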
